A study of Mus musculus with 6 samples.

Results

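Recurrent mammary tumour was compared with long-term dormant tissue, in mice whose transplanted tumours were treated with a fibroblast growth factor receptor (FGFR) inhibitor. Cells were taken from the stage table by their library, Recurrent or Long-term dormant. A cell was kept if it had 500 or more unique molecular identifiers (UMIs, one per captured RNA molecule) from 200 or more genes, with no more than 20% of them mitochondrial. That rule kept 10689 cells, 4685 Recurrent and 6004 Long-term dormant, of 18293 that pass the same filter in the 4 stage libraries. The Recurrent tumours carried the genotype label MMTV-Wnt1/iFGRR3 and came from mice aged 20 to 22 weeks. The Long-term dormant tissue was labelled MMTV-Wnt1/iFGRR4, from mice aged 32 to 34 weeks. The genotype labels of the 6 samples of the series count up from iFGRR1 to iFGRR6, and whether they name different lines is not known. Both were mammary gland of the strain FVB (FVB.rGH-Luc-GFP). The MMTV promoter drives the Wnt1 transgene in mammary epithelium, and a homodimerizer switches on receptors engineered to bind it. The labels give all samples one protocol: after transplantation the B/B homodimerizer was injected every 3 days until tumours measured 4 to 5 mm, and at 7 to 9 mm the mice received the FGFR inhibitor NVP-BGJ398 by gavage for 14 days and then none for 14 days. Mice of the recurrence arm were left without treatment afterwards. The labels do not give the number of mice behind a library or say which cells carry eGFP.

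Wnt1 signalling expands mammary epithelium and FGFR signalling drives its growth through the MAP kinase cascade, and both are known to drive mammary tumours. The mammary duct has an inner luminal layer, with hormone-sensing cells and with progenitors that can make milk proteins, and an outer basal, contractile layer. Residual tissue after therapy also holds fibroblasts that lay down matrix and immune cells that clear or shelter tumour cells.

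There was 1 library a side, so genotype label, age, outcome and library cannot be told apart, and no test was made. Each interval below is a 95% interval that covers counting error only. Scrublet marked 57 Recurrent and 137 Long-term dormant cells as doublets, which left 4628 and 5867 cells. Depth was unequal, with a median of 7502.5 UMIs per Recurrent and 3163 per Long-term dormant cell. The libraries shared 44 cell barcodes, 0.939% of the Recurrent ones. Classes were named "X-like" from fixed markers, and levels (CPM) are UMIs per 1000000 UMIs of a class. Where a level is given against another, the Recurrent one comes first. Libraries were prepared from thawed, sorted live cells.

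The Recurrent library was mostly epithelial-like and the Long-term dormant library mostly stromal and immune-like. Epithelial-like cells made up 57.3% of all Recurrent cells (interval 55.9 to 58.7, 2652 cells) and 2.76% of Long-term dormant cells (2.36 to 3.21, 162 cells). Fibroblast-like cells stood the other way, at 2.25% (1.84 to 2.72, 104 cells) against 49.4% (48.1 to 50.7, 2899 cells). Immune-like cells as a whole differed less, at 40.0% (1850 cells) against 45.4% (2663 cells). Few vascular cells were caught in either library, with 10 and 28 endothelial-like cells.

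**Figure D1:**
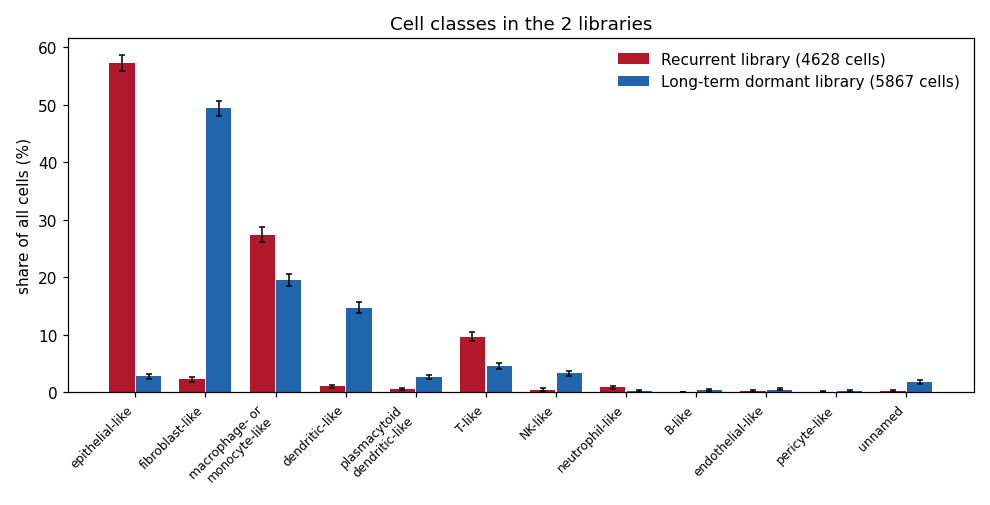
Share of all cells (%) in each cell class for the Recurrent (red) and Long-term dormant (blue) libraries, with exact 95% intervals as error bars. The epithelial-like share is 57.3% against 2.76% and the fibroblast-like share 2.25% against 49.4%.

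Within the immune-like cells the makeup differed too. Macrophage- or monocyte-like cells, which engulf debris and present antigen, were 68.5% of Recurrent (66.4 to 70.7) and 43.1% of Long-term dormant immune-like cells (41.3 to 45.1). Dendritic-like cells, which prime T cells, were 2.54% (47 cells) against 32.5% (865 cells). T- and NK-like cells together were 25.3% (23.3 to 27.3) against 17.2% (15.8 to 18.7). Their parts as named went opposite ways: T-like cells were 24.2% against 9.99% and NK-like cells 1.08% (20 cells) against 7.21% (192 cells). Of the T-like cells, 224 Recurrent and 11 Long-term dormant ones lay in cluster 13, led by Gzmb, Gzmc and Xcl1. The split between T- and NK-like cells rests on the class given to that cluster, and it was not recomputed under other settings. Plasmacytoid dendritic-like cells were 1.41% against 5.78% and neutrophil-like cells 2.16% against 0.451%. B-like cells numbered 23 in the Long-term dormant library, 0.864% of its immune-like cells. None were found among 1850 immune-like cells of the Recurrent library, which allows a share of up to 0.162% as 3 cells, or 0.199% by the exact interval. These are shares of sorted live cells and not of the tissue.

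The reporter eGFP separated the epithelial-like cells of the libraries. It was detected in 2624 of 2652 Recurrent epithelial-like cells, 98.9%, at 6838 CPM. In the Long-term dormant library it was detected in 3 of 162 epithelial-like cells, 1.85% (0.384 to 5.32), which held 48, 12 and 121 eGFP UMIs. The cell with 12 lay in the basal-like cluster 12 and held 0 UMIs of Krt8, Krt18, Krt14 and Krt5. After each cell was thinned to 1000 UMIs the shares were 97.1% and 1.91%, with 21 and 5 shallower cells left out. As a measure of free RNA, immune-like cells held an eGFP UMI in 17.1% of Recurrent cells (median 5680 UMIs) and 0.113% of Long-term dormant cells (median 2606 UMIs), or 4.42% and 0.0435% when thinned. The 3 Long-term dormant cells had eGFP far above the 1 UMI that was the highest in any immune-like cell of that library. In the Recurrent library the highest in 1 immune-like cell was 75 UMIs. Whether counts of that size are free RNA was not tested. Wnt1, the transgene's secreted ligand (chromosome 15, 98789857 to 98793837, mm10), gave 503 UMIs in Recurrent epithelial-like cells, 17.6 CPM, and 0 in Long-term dormant ones, where 3 UMIs would be 3.67 CPM, and so was at least 4.81-fold higher. The transgene and the native gene share that symbol. Nearly all Long-term dormant epithelial-like cells were thus without detected reporter or Wnt1, and the comparison of epithelial-like cells below is between cells that differ in this way.

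Epithelial-like cells fell in different clusters in the 2 libraries. Of the Recurrent cells, 1597 lay in cluster 1, led by Klk10, Ltf and Lalba, 669 in cluster 5, led by Cldn4, Krt7 and Krt19, and 183 in cluster 15, led by cell cycle genes. Of the Long-term dormant cells, 66 lay in cluster 22, led by Cst6, Calca and Cited1, 51 in the basal-like cluster 19, led by Acta2 and Wif1, and 31 in cluster 5. The 8 luminal markers summed to 5436 CPM in Recurrent and 5394 CPM in Long-term dormant epithelial-like cells. Luminal-like cells were 99.2% of the first and 67.3% of the second (109 cells), so lists are also given for luminal-like cells alone where that bears on them. Fibroblast markers summed to 16.0 CPM in the Recurrent and 836 CPM in the Long-term dormant class, with no marker at 0 in either. A gene is named below as a candidate for free RNA where another class, in the library with more of it, held it at over 5 times the level. Only classes with at least 50 cells in that library were checked. The 40 neutrophil-like and 20 NK-like Recurrent cells were too few for this. The part of free RNA in the other values was not tested.

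A gene was counted as past 2-fold when the whole interval of its ratio lay beyond 2-fold. All 8 hormone-sensing luminal genes were past 2-fold lower in Recurrent epithelial-like cells, with a median log2 ratio of -6.18, where 5.57% of the 11643 genes measured were past 2-fold lower and the median of all genes was -0.03. Prlr, the prolactin receptor (chromosome 15, 10177238 to 10349180, mm10), stood at 106 CPM in the Recurrent and 675 CPM in the Long-term dormant library, a log2 ratio of -2.67 (-2.80 to -2.53). Areg, an EGF receptor ligand made under oestrogen, stood at 30.1 CPM in the Recurrent and 259 CPM in the Long-term dormant library. Cited1, a transcriptional coregulator and one of the genes that lead cluster 22, stood at 1.05 against 456 CPM. Each of these was present in both libraries and lower beyond counting error.

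The hormone receptors themselves were low in Recurrent cells. Esr1, the oestrogen receptor (chromosome 10, 4611593 to 5005614), stood at 1.05 CPM in the Recurrent and 22.0 CPM in the Long-term dormant library, a log2 ratio of -4.40 (-5.28 to -3.46). Pgr, the progesterone receptor (chromosome 9, 8899833 to 8968611), stood at 0.14 against 63.6 CPM, from 4 and 52 UMIs. Foxa1, a factor that opens chromatin for the oestrogen receptor, stood at 0.771 against 95.4 CPM, a log2 ratio of -6.93 (-7.70 to -6.25). Their paracrine outputs were low as well. Tnfsf11, RANK ligand, stood at 0.316 against 103 CPM and Wnt4 at 3.44 against 149 CPM. The list kept its pattern in luminal-like cells alone, with 8 of 8 lower and a median of -6.51, where 2.45% of all genes were past 2-fold higher and 3.89% lower. Within cluster 22, which held 36 Recurrent and 66 Long-term dormant cells, 6 of 7 measured members were lower with a median of -3.37, where 9.73% of all genes were past 2-fold higher and 4.04% lower. Foxa1 was the member within 2-fold there, at 80.7 against 188 CPM. The 28 Recurrent epithelial-like cells without eGFP had Prlr at 230.0 CPM (155 to 328) and Foxa1 at 107 CPM (58.7 to 180.1), against 106 and 0.771 CPM in the whole class. Foxa1 rests there on 14 UMIs. Cited1 stood at 176 CPM and Areg at 38.3 CPM in these cells, while Esr1, Pgr, Wnt4 and Tnfsf11 gave 2, 2, 1 and 0 UMIs. Of the 28 cells 13 lay in cluster 5, 12 in cluster 1, 1 in cluster 15 and 2 in cluster 22. In the other stage libraries Prlr stood at 38.8 CPM in Primary and 87.8 CPM in Dormant epithelial-like cells.

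Luminal progenitor and milk genes were mixed and mostly higher. Of 12 members, 7 were past 2-fold higher and 2 lower, with a median of 1.42, where 2.72% of all genes measured were past 2-fold higher. Csn3, kappa-casein (chromosome 5, 87925579 to 87932665), stood at 16117 CPM in the Recurrent and 1412 CPM in the Long-term dormant library, a log2 ratio of 3.51 (3.43 to 3.60). Its casein neighbours were the 2 lower members. Csn2, beta-casein (chromosome 5, 87692624 to 87699630), stood at 715 CPM in the Recurrent and 3709 CPM in the Long-term dormant library, a log2 ratio of -2.38 (-2.43 to -2.32). Csn1s1 (chromosome 5, 87666208 to 87682578) stood at 167 CPM in the Recurrent and 1976 CPM in the Long-term dormant library, a log2 ratio of -3.57 (-3.65 to -3.49). So 3 casein genes of one stretch of chromosome 5 differed in opposite directions between the libraries. In Primary epithelial-like cells Csn3 stood at 7162, Csn2 at 18.3 and Csn1s1 at 16.5 CPM.

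Elf5, the factor that sets the alveolar fate, stood at 208 against 74.6 CPM, a log2 ratio of 1.47 (1.12 to 1.87). Ltf, lactoferrin, stood at 713 against 136 CPM and Lalba, alpha-lactalbumin, at 867 against 333 CPM. Wfdc18 stood at 12496 against 3315 CPM and Cd14, a co-receptor for lipopolysaccharide, at 227 against 61.1 CPM. Kit, a receptor of progenitor cells, stood at 42.9 against 23.2 CPM and was within 2-fold. Csn2, Lalba, Ltf and Wfdc18 lead clusters, and without them 4 of 8 members were higher and 1 lower. In luminal-like cells alone 4 of 12 were higher and 2 lower, with a median of 1.08. Elf5 came within 2-fold there, at 209 against 95 CPM.

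**Figure D2:**
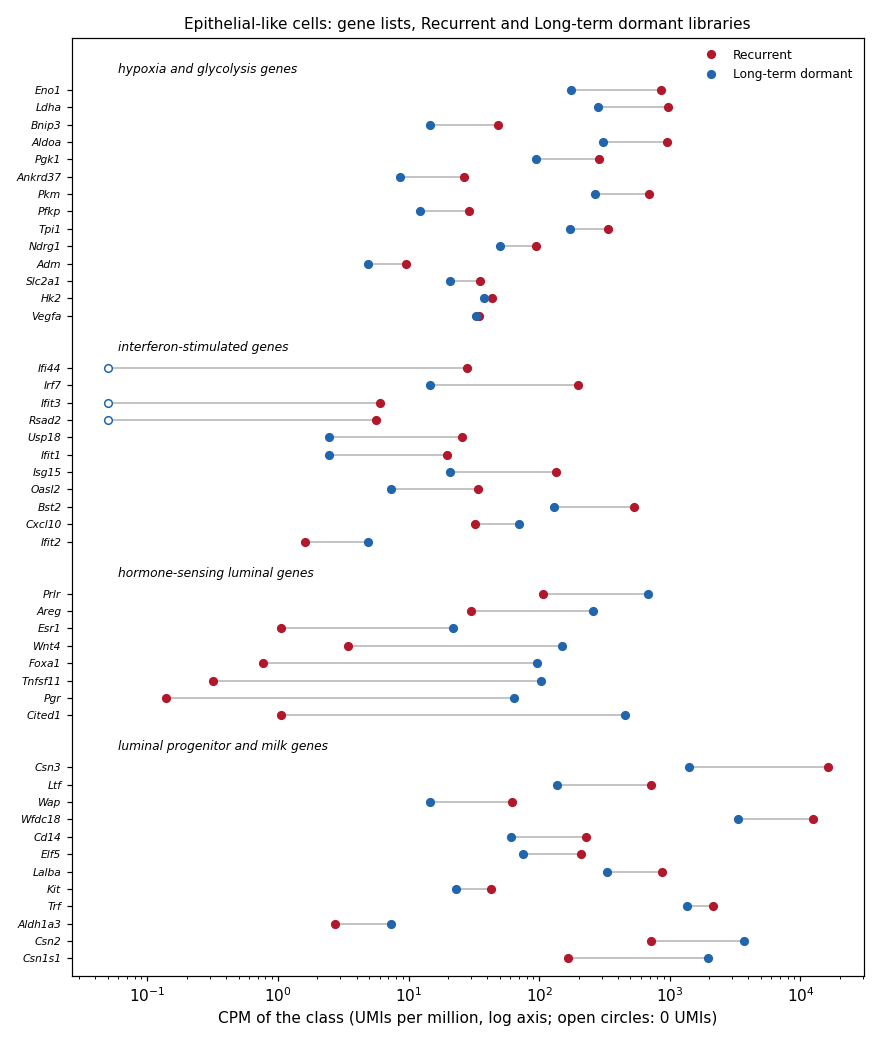
Levels of measured members of 4 gene lists in epithelial-like cells (CPM, log axis), Recurrent in red and Long-term dormant in blue, with open circles at the left edge for 0 UMIs. The 8 hormone-sensing genes all lie lower in the Recurrent library, while 7 of 12 luminal progenitor and milk genes are past 2-fold higher.

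Basal and myoepithelial genes were low in the Recurrent class, and their count rests on the 51 basal-like cells of cluster 19. Of 10 members 9 were past 2-fold lower, with a median of -8.52, or -8.05 with a member at 0 UMIs set at 3 UMIs. Acta2, smooth muscle actin, stood at 0.596 against 1059 CPM. Krt5, a basal keratin, stood at 0.771 against 110.1 CPM, and Trp63, the factor that maintains basal cells, at 5.15 against 45.2 CPM. In luminal-like cells alone only 2 of 6 measured members were lower and the median was -1.61. A single cell held 19 of 20 Long-term dormant Acta2 UMIs there. Without the cell with the highest count of each gene, 1 member was lower. Krt14 differed by cluster. It stood at 61.8 against 265 CPM in the class but at 5116 against 27.2 CPM within cluster 22, where Krt17 stood at 1776 against 2.47 CPM. Within cluster 22 the Recurrent cells held basal keratins at a level that the Long-term dormant cells of the same cluster did not. Lgals7, a galectin of stratified epithelia and a basal marker, stood at 2293 against 214 CPM in the whole class.

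Genes of the targeted receptor family and its feedback were split. Of 15 FGF receptor and MAP kinase feedback genes 2 were past 2-fold higher and 1 lower, with a median of -0.41. Fgfr2, an FGF receptor of mammary epithelium, stood at 0.14 against 88.0 CPM, from 4 and 72 UMIs, a log2 ratio of -9.13 (-11.21 to -7.88). Fgfr1 stood at 32.0 against 63.6 CPM, and its interval did not lie beyond 2-fold. Dusp6, a phosphatase that ERK induces and that switches ERK off, stood at 237 against 70.9 CPM, a log2 ratio of 1.73 (1.37 to 2.14). Phlda1, another immediate target of growth factor signalling, stood at 1333 against 252 CPM. The Sprouty genes Spry1, Spry2 and Spry4 had log2 ratios of -1.05, -0.03 and -1.40, none past 2-fold. Both Dusp6 and Phlda1 stayed past 2-fold higher, and Fgfr2 lower, in luminal-like cells alone, where the list median was 0.44.

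Other growth factor routes gave small counts. Among 9 EGF family genes Hbegf, which leads a cluster, was past 2-fold higher, at 174 against 23.2 CPM, and Areg and Nrg1 lower, Nrg1 at 1.68 against 28.1 CPM. Among 10 Wnt target and feedback genes Tnfrsf19, a receptor that Wnt signalling induces, was higher at 30.5 against 4.89 CPM. Lgr6, a receptor for R-spondins, was lower at 2.66 against 24.5 CPM, as were Wif1 and Bambi. Without 1 cell that held 4 of its 35 Long-term dormant UMIs, Bambi was within 2-fold. Axin2, the most used read-out of Wnt signalling, gave 99 and 1 UMIs, too few in the smaller class to place it, at 3.47 against 1.22 CPM. In luminal-like cells alone 1 Wnt target was higher and Lgr6 lower. Without 1 cell that held 2 of its 9 Long-term dormant UMIs there, Lgr6 was within 2-fold.

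Notch receptors and ligands, which pass signals between neighbouring cells, were lower or within 2-fold. Of 7 measured members 4 were past 2-fold lower, with a median of -1.87, or -2.25 with Notch4, at 0 UMIs in the Long-term dormant class, set at 3 UMIs. Dll1, a ligand of basal cells, stood at 0.911 against 36.7 CPM and Jag2 at 0.596 against 22.0 CPM. Jag1, the ligand that the series' antibody arm targets, stood at 2.80 against 20.8 CPM, a log2 ratio of -2.92 (-3.66 to -2.04). Notch3, a receptor, stood at 9.54 against 34.2 CPM, and Notch1 at 21.0 against 40.4 CPM, within 2-fold. Of 4 measured Notch targets Hey1 was lower, at 1.61 against 8.56 CPM and from 7 Long-term dormant UMIs, of which 3 came from 1 cell, and without that cell it was within 2-fold. Hes1 was within 2-fold at 60.3 against 102 CPM. In luminal-like cells alone 1 of 6 receptors and ligands was lower.

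Interferon-stimulated genes, the antiviral programme that interferon receptors switch on through STAT and IRF factors, were higher in Recurrent epithelial-like cells. Of 12 measured members 7 were past 2-fold higher and none lower, with a median of 2.68, or 2.07 with the members at 0 UMIs set at 3 UMIs. The interferon-stimulated response element is the DNA motif that IRF factors read. The promoters of 3 of the higher members that hold its letters, 2 copies of GAAA with any 2 bases between them on either strand, are shown, each as the 120 bases from 170 to 51 before the start (RefSeq, GRCm38.p6), 5′ to 3′ along the gene, with matches in capitals.
Isg15, chr4:156200869-156200988, minus strand: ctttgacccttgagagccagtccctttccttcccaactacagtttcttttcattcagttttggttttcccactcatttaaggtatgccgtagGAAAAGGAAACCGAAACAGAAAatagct
Bst2, chr8:71537523-71537642, minus strand: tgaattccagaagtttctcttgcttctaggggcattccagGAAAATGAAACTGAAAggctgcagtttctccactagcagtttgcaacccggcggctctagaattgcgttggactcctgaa
Ifit1, chr19:34640719-34640838, plus strand: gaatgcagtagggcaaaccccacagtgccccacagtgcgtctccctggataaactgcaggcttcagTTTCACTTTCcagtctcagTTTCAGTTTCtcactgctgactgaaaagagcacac
Isg15 has 3 overlapping matches, Bst2 has 2 overlapping ones, and Ifit1 has 2 separate ones on the other strand. Of the 13 list genes 10 had a promoter in the table, and 6 of these held a match within 250 bases before to 50 after the start, against 3.99% of the 27025 genes with a promoter. A match is a description of the letters and not a measured site, and the motif was chosen after the levels were seen.

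Isg15, a ubiquitin-like modifier (chromosome 4, 156199424 to 156200818), stood at 135 CPM in the Recurrent and 20.8 CPM in the Long-term dormant library, a log2 ratio of 2.66 (2.02 to 3.48). Bst2, a protein that tethers budding virus, stood at 536 against 129.6 CPM, a log2 ratio of 2.04 (1.77 to 2.34). Ifit1, a sensor of viral RNA caps, stood at 19.8 against 2.45 CPM, from 564 and 2 UMIs. Irf7, the factor that amplifies interferon output and had no match in its promoter window, stood at 198 against 14.7 CPM, a log2 ratio of 3.69 (2.95 to 4.71). Ifi44 was at 0 UMIs in the Long-term dormant class and at least 7.70-fold higher in the Recurrent class. Cxcl10, a chemokine that draws T cells and that holds 1 match, went the other way without passing 2-fold, at 32.4 against 69.7 CPM. In luminal-like cells a single cell held 53 of its 57 Long-term dormant UMIs. Without that cell Cxcl10 stood there at 32.5 against 6.36 CPM, a log2 ratio of 2.18 (0.99 to 4.23). Usp18 stood at 25.7 against 2.45 CPM and Oasl2 at 34.0 against 7.34 CPM. The 137 Recurrent cells of cluster 20, led by the interferon-inducible Igtp, Tgtp1 and Iigp1, are part of the class. In luminal-like cells alone 5 of 12 were higher and 1, Cxcl10, lower. Without the cell with the highest count of each gene, 5 were higher and 0 lower there, and 8 higher and 0 lower in the class.

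MHC class I genes, which display peptides to CD8 T cells, followed in part. H2-K1 stood at 2103 against 871 CPM and H2-D1 at 2429 against 951 CPM, and these 2 of 9 members were past 2-fold higher, with a list median of 0.96. B2m, their shared light chain, stood at 4948 against 3074 CPM, a log2 ratio of 0.69 (0.63 to 0.74). H2-K1 and H2-D1 are close copies, so reads can be assigned to either. Of 7 MHC class II genes none was higher, and 6 of them are candidates for free RNA.

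Hypoxia and glycolysis genes were higher in part. Of 14 measured members 5 were past 2-fold higher and none lower, with a median of 1.26. All 5 are enzymes of glycolysis. Eno1, enolase, stood at 861 CPM in the Recurrent and 176 CPM in the Long-term dormant library, a log2 ratio of 2.28 (2.05 to 2.54). Ldha, lactate dehydrogenase, stood at 961 against 280.0 CPM, Aldoa at 949 against 308 CPM, Pgk1 at 289 against 94.2 CPM and Pkm at 688 against 269 CPM. Vegfa, the angiogenic factor that hypoxia induces, stood at 34.5 against 33.0 CPM, a log2 ratio of 0.04 (-0.49 to 0.67). In luminal-like cells alone the count was again 5 of 14. Respiratory chain genes had 0 of 14 past 2-fold in either direction and a median of 0.33.

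Acute phase and stress genes were higher for several members each. Of 8 acute phase genes 4 were past 2-fold higher and 2 lower. Lcn2, lipocalin that binds bacterial iron carriers, stood at 5688 CPM in the Recurrent and 780.2 CPM in the Long-term dormant library, a log2 ratio of 2.86 (2.75 to 2.98). Saa1 stood at 91.1 against 3.67 CPM and Saa2, its near-identical copy, at 55.5 against 1.22 CPM, from 3 and 1 Long-term dormant UMIs. Lbp stood at 170.4 against 35.5 CPM. The lower members were Hp, haptoglobin, which leads cluster 5, at 29.2 against 109 CPM and C3, a candidate for free RNA. Of 9 unfolded protein response genes Xbp1, the factor that enlarges the secretory apparatus, was higher at 1413 against 143 CPM, and so was Sdf2l1 at 134 against 39.1 CPM.

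Proliferation genes were mostly within 2-fold in the epithelial-like cells, with few UMIs on the Long-term dormant side. Of 21 members 1 was past 2-fold higher and none lower, with a median of 0.03, or -0.21 with mitochondrial, ribosomal protein and haemoglobin genes left out of the totals. Mki67, a marker of cycling cells, stood at 13.7 against 15.9 CPM, a log2 ratio of -0.26 (-1.0010 to 0.71), and Top2a at 14.9 against 18.3 CPM. The Long-term dormant levels rest on 13 and 15 UMIs, and 1 cell held 9 of the Top2a UMIs. Cluster 15, led by cell cycle genes, held 183 of 2652 Recurrent and 3 of 162 Long-term dormant epithelial-like cells. Mki67 was detected in 8.18% of Recurrent and 6.79% of Long-term dormant epithelial-like cells, or 0.874% and 0.637% when thinned to 1000 UMIs. Birc5, survivin, which leads cluster 15, was the higher member, at 40.3 against 9.78 CPM. Among 11 cell cycle inhibitors Cdkn2b, at 0 UMIs in the Long-term dormant class, was at 10.7 CPM in the Recurrent class, at least 2.91-fold higher. Cdkn1b, p27, stood at 13.4 against 15.9 CPM and was within 2-fold. Myc stood at 18.2 against 58.7 CPM and was the 1 of 10 Myc and nucleolar genes past 2-fold, lower.

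Other lists and genes filled out the contrast. Of 7 measured insulin-like growth factor (IGF) axis genes 5 were past 2-fold lower, of which 4 are candidates for free RNA. The fifth, Igfbp2, a binding protein, stood at 0.631 against 96.6 CPM. Igfbp5, which epithelial cells secrete as they involute, stood at 1056 against 745 CPM and was within 2-fold. Of 7 measured EMT genes 6 are candidates for free RNA. Epithelial adhesion genes had 1 of 10 past 2-fold in each direction, Cldn3 higher at 680.3 against 292 CPM and Dsp, desmoplakin, lower at 5.29 against 62.4 CPM.

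Of 10 TGF-beta family genes Fst, follistatin, which traps activins, was lower at 2.07 against 41.6 CPM, and Bmp7 was lower at 1.19 against 15.9 CPM. Of 13 sterol and fatty acid synthesis genes Scd1, a desaturase that leads a cluster of Primary cells, was higher at 350.1 against 116 CPM. Of 13 immediate early and heat shock genes, which dissociation can induce, Egr1 was lower at 153 against 624 CPM and the list median was 0.03, or -0.22 with those 3 gene families left out of the totals.

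Named genes were ranked without those that lead clusters. Among the 12 highest named genes by log2 ratio were Pglyrp1, which binds bacterial walls, at 475 against 14.7 CPM, and Prtn3, a neutrophil-type protease, at 252 against 15.9 CPM. Cyp1b1, which metabolises oestrogens, stood at 201 against 18.3 CPM and Acsl4, which activates arachidonic acid, at 272 against 24.5 CPM. S100a8, an alarmin, stood at 217 against 3.67 CPM, a log2 ratio of 5.67 (4.34 to 8.17) that rests on 3 Long-term dormant UMIs. It is also a neutrophil marker that leads the neutrophil-like cluster 24. With 40 Recurrent cells that class was not part of the check for free RNA. Among the 12 lowest named genes were Cxcl15 at 0.175 against 320.4 CPM, Agtr1a, the angiotensin receptor, at 0.105 against 127 CPM, and Slc5a5, the iodide transporter, at 1.51 against 117 CPM. Gpx3, a secreted glutathione peroxidase, stood at 5.71 against 1624 CPM and Cxcl14, a chemokine, at 3.86 against 254 CPM. Over all genes measured 317 were past 2-fold higher and 648 lower. With mitochondrial, ribosomal protein and haemoglobin genes left out of the totals, which took 33.3% of Recurrent and 43.8% of Long-term dormant UMIs, the split was 215 higher and 800 lower.

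Fibroblast-like cells, which build and remodel the matrix, came from the same clusters in both libraries. Cluster 0, led by Col1a1, Col1a2 and Col3a1, held 56 of 104 Recurrent and 1903 of 2899 Long-term dormant cells. Cluster 6, led by Pi16, Smpd3 and Sema3c, held 47 and 981. The 8 fibroblast markers summed to 31311 and 39349 CPM. Over 11010 genes 121 were past 2-fold higher and 49 lower, and the median of all genes was 0.02. Luminal markers summed to 330.4 CPM in the Recurrent and 37.0 CPM in the Long-term dormant class, and an eGFP UMI was found in 20 of 104 Recurrent cells (3.85% when thinned).

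Activated fibroblast genes were higher in part. Of 12 members 4 were past 2-fold higher and none lower, with a median of 0.87, where 1.10% of all genes measured were higher. Tnc, tenascin C, a matrix protein of wounds, stood at 84.6 CPM in the Recurrent and 11.5 CPM in the Long-term dormant library, a log2 ratio of 2.89 (2.43 to 3.33). A single cell held 29 of its 63 Recurrent UMIs, and without that cell Tnc stood at 47.0 CPM, a log2 ratio of 2.05 (1.44 to 2.59). Cthrc1, a secreted protein of matrix-making fibroblasts, stood at 760.1 against 197 CPM, a log2 ratio of 1.95 (1.81 to 2.08). Lox, which cross-links collagen, stood at 727 against 196 CPM, a log2 ratio of 1.89 (1.75 to 2.03). Tagln, an actin-binding protein, stood at 44.3 against 8.35 CPM, but 25 of its 33 Recurrent UMIs came from 1 cell. Without that cell it stood at 11.0 CPM, a log2 ratio of 0.47 (-0.86 to 1.43), and the list count was 3. Within cluster 0, where 0.955% of all genes were past 2-fold higher and 0.415% lower, the 4 genes were past 2-fold higher as well, joined by Fn1, fibronectin, at 3249 against 1176 CPM, and without the same cell Tagln was again within 2-fold. Not every member followed. Postn, periostin, stood at 1058 against 1186 CPM and Fap, a surface protease, at 67.1 against 114 CPM, with log2 ratios of -0.16 and -0.75.

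Collagens went both ways by type. Of 10 fibrillar and associated collagens 1 was past 2-fold higher and 3 lower, with a median of -0.55, where 0.445% of all genes measured were lower. Col12a1, which links fibrils to the surrounding matrix (chromosome 9, 79598991 to 79718831), was the higher one at 330.4 CPM in the Recurrent and 58.1 CPM in the Long-term dormant library, a log2 ratio of 2.51 (2.29 to 2.72). The 3 chains of collagen VI, which form beaded microfibrils around cells, were the lower ones. Col6a3 (chromosome 1, 90765923 to 90843971) stood at 328 CPM in the Recurrent and 1339 CPM in the Long-term dormant library, a log2 ratio of -2.03 (-2.22 to -1.85). Col6a2 stood at 449.9 against 1432 CPM and Col6a1 at 598 against 1323 CPM. The chains of collagen I and III were within 2-fold, with Col1a1 at 4633 against 6712 CPM and Col3a1 at 11395 against 14733 CPM. Col6a1, Col6a2 and Col6a3 are among the 7 members that lead cluster 0, so their values are a description. The same 4 collagens were past 2-fold within cluster 0.

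Basement membrane genes lay lower. Of 11 members 2 were past 2-fold lower and none higher, with a median of -0.97, and within cluster 0 the count was 5 with a median of -1.21. Hspg2, perlecan, stood at 176 against 496 CPM, a log2 ratio of -1.49 (-1.76 to -1.25). Col15a1 stood at 124 against 438 CPM, a log2 ratio of -1.82 (-2.14 to -1.53). Col4a1, the main network collagen, stood at 365 against 820.0 CPM, a log2 ratio of -1.16 (-1.35 to -0.99), short of the call in the class. Nid1, nidogen, stood at 676 against 654 CPM.

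**Figure D3:**
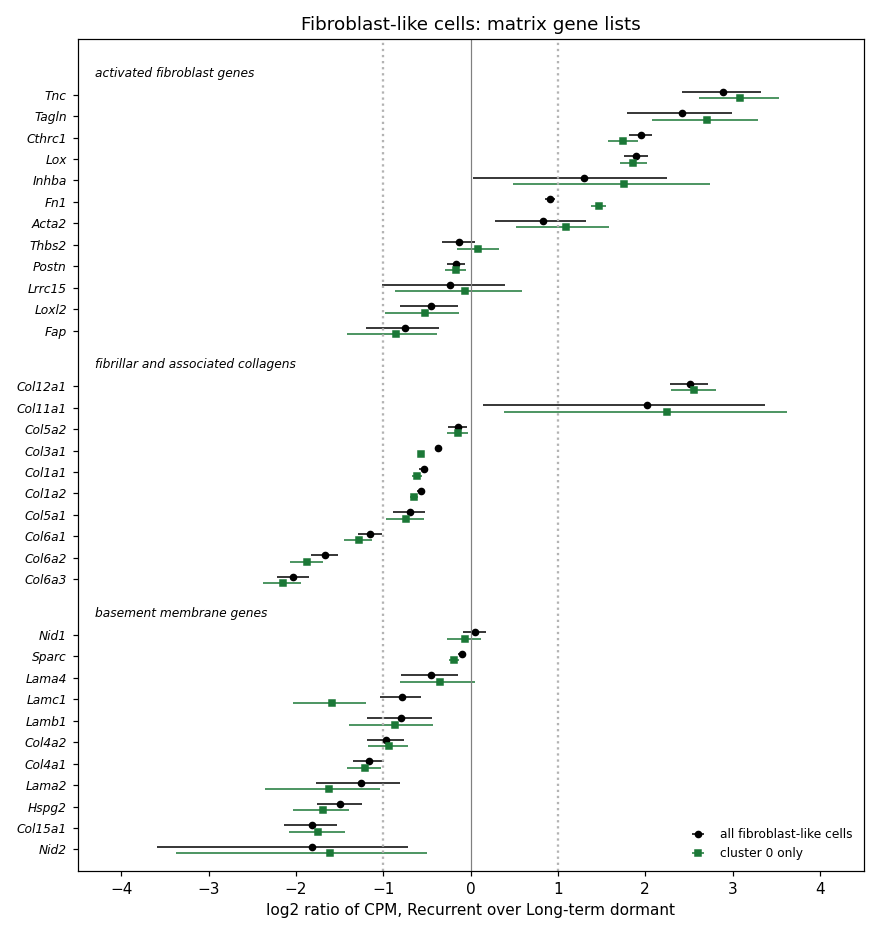
Log2 ratio of CPM, Recurrent over Long-term dormant, for the measured members of 3 matrix lists in fibroblast-like cells, with 95% counting intervals; black circles are the whole class and green squares cluster 0, and dotted lines mark 2-fold. Col12a1, Tnc, Cthrc1 and Lox lie right of the 2-fold line and the 3 collagen VI chains left of it in both. Tagln lies to the right too, with 25 of 33 Recurrent UMIs from 1 cell.

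Secreted signals of the fibroblast-like cells differed for a few members of each list. Of 10 Wnt ligands and modulators Sfrp1, which leads cluster 23, and Sfrp2, secreted Wnt antagonists, were past 2-fold higher, at 404 against 90.8 CPM and 949 against 283 CPM. Of 8 IGF axis genes Igf1, the growth factor, was higher at 443 against 188 CPM. Igfbp2 stood at 64.5 against 1.78 CPM, but all 48 Recurrent UMIs came from 1 of 104 cells, and without it none was left. Igfbp6 was lower at 980.4 against 2299.6 CPM. Of 12 cytokines and chemokines Il33, an alarmin, was higher at 156 against 62.1 CPM and so was Ccl7, which attracts monocytes, at 1183 against 538 CPM. Il6 stood at 200.1 against 177 CPM and Cxcl12, the ligand of Cxcr4, at 624 against 431 CPM, both within 2-fold. Timp1, an inhibitor of metalloproteinases, was the 1 of 9 members of its list past 2-fold, higher at 391 against 156 CPM. The intervals of Igf1, Il33, Ccl7 and Timp1 reached inside 2-fold without the 1 cell with the highest count of each gene. Their log2 ratios were then 1.17, 1.15, 1.04 and 1.08. The cell left out held 19 of 330, 15 of 116, 67 of 881 and 52 of 291 Recurrent UMIs. Inhbb, an activin subunit, was the 1 of 12 TGF-beta family genes past 2-fold, higher at 29.5 against 2.67 CPM.

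Other stromal lists gave single calls. Of 9 resting stroma genes Cxcl14, a chemokine, was higher at 884 against 241 CPM, or at 558 CPM without 1 cell that held 251 of its 658 Recurrent UMIs, still past 2-fold, and Gsn, gelsolin, lower at 3403 against 8135 CPM, and both calls were the same within cluster 0. Of 13 proteoglycan and elastic fibre genes Mfap4, a microfibril protein, was higher at 317 against 124 CPM but within 2-fold in cluster 0, while Dcn, decorin, stood at 4081 against 4000.3 CPM. Among complement genes C3 was lower at 549 against 1219 CPM and within 2-fold in cluster 0. Ifit1 was the 1 of 12 interferon-stimulated genes past 2-fold, higher at 67.1 against 17.9 CPM, and the list median was -0.29, or 0.061 within cluster 0.

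Cell cycle genes were low in the fibroblast-like cells of both libraries. Of 20 measured proliferation genes 2 were past 2-fold lower in the Recurrent class, Top2a and Cenpf, both at 0 UMIs there and both candidates for free RNA. Mki67 was found in 2 of 104 and 55 of 2899 cells. Adventitial genes had 1 of 9 past 2-fold higher, Mfap5, at 2075 against 851 CPM. C1qa, C1qb and C1qc were past 2-fold higher but are candidates for free RNA in this class, since macrophage- or monocyte-like cells hold them at far higher levels. Among the highest named genes were Ctla2a, a cysteine protease inhibitor, at 1694 against 93.5 CPM, and Tnfrsf11b, osteoprotegerin, at 95.3 against 9.59 CPM. Adm, adrenomedullin, stood at 278 against 62.6 CPM and Socs3, a brake on cytokine signalling, at 839 against 196 CPM. Among the lowest were Saa3 at 25.5 against 233 CPM, Sparcl1 at 43.0 against 243 CPM and Pdgfrb, a growth factor receptor, at 36.3 against 122 CPM. Ctla2a, Tnfrsf11b, Adm, Socs3 and Saa3 were past 2-fold within cluster 0 too.

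Macrophage- or monocyte-like cells of the 2 libraries lay in different clusters. Of 1268 Recurrent cells 861 lay in the macrophage-like cluster 2, led by Il1a, Il1b and Ccl4, 259 in the macrophage-like cluster 8, led by Mmp12, C1qa and Hmox1, and 119 in the monocyte-like cluster 3, led by Retnla, Ccl6 and Pf4. A further 29 Recurrent cells lay in the macrophage-like cluster 27, led by Cd209f, Fcna and Ccl8. Of 1149 Long-term dormant cells 1112 lay in cluster 3, and 1 in cluster 27. The lists below are therefore given for the class and for cluster 3, where 0.980% of all genes were past 2-fold higher and 0.845% lower. The 8 macrophage markers summed to 16704 CPM in Recurrent and 1974 CPM in Long-term dormant cells, and the 8 monocyte markers to 205 and 1448 CPM. Fibroblast markers summed to 18.3 and 831 CPM, and their part in the values below was not tested. Over 10012 genes 399 were past 2-fold higher and 556 lower, and the median of all genes was -0.20. With TMM factors, which moved the ratios by 0.24, the split was 548 higher and 424 lower.

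Inflammatory genes were higher in the class. Of 9 measured members 7 were past 2-fold higher and none lower, with a median of 3.31, where 3.99% of all genes measured were higher. Il1a, an interleukin released by stressed cells (chromosome 2, 129299610 to 129309972), stood at 469 CPM in the Recurrent and 9.87 CPM in the Long-term dormant library, a log2 ratio of 5.55 (5.10 to 6.08). Tnf, the cytokine, stood at 792 against 67.8 CPM and Ccl4, a chemokine, at 2358 against 134 CPM. Il1a, Tnf, Ccl4, Il1b and Ccl3 lead cluster 2, and without them 2 of 4 members were higher. These were Cxcl2, which draws neutrophils (chromosome 5, 90903871 to 90905938), at 9192 CPM in the Recurrent and 2921 CPM in the Long-term dormant library, and Cxcl9, which draws T cells, at 94.1 against 9.34 CPM. Within cluster 3 the count was 3 of 9 with a median of 0.68. Cxcl2 there stood at 6899.8 against 2906 CPM, a log2 ratio of 1.25 (1.19 to 1.30), and Il1a at 34.3 against 8.70 CPM, from 18 Recurrent UMIs of which 7 came from 1 cell, without which it was within 2-fold. Tnf stood at 78.2 against 67.1 CPM there, a log2 ratio of 0.24 (-0.29 to 0.70). The list median was thus lower in cluster 3 than in the class, a difference that was not tested.

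Monocyte genes differed between the class and cluster 3. In the class 6 of 6 members were past 2-fold lower, with a median of -3.31, where 5.55% of all genes measured were lower. Ly6c2, a surface marker of blood monocytes (chromosome 15, 75108158 to 75111970), stood at 5.65 CPM in the Recurrent and 334 CPM in the Long-term dormant library, a log2 ratio of -5.87 (-6.33 to -5.47). Ccr2, the receptor that brings monocytes from marrow, stood at 89.3 against 378 CPM, and Plac8, a candidate for free RNA, at 47.2 against 517 CPM. Within cluster 3 the median was 0.14 and Ly6c2 was the 1 member lower, at 57.2 against 341 CPM. Ccr2 stood there at 429 against 379 CPM and Plac8 at 563 against 523 CPM. Of 10 resident-type macrophage genes 3 were lower in the class, Mrc1, Cbr2 and F13a1, all of which lead clusters. Cbr2, F13a1 and Folr2 are among the leading genes of cluster 27, which held 29 Recurrent cells and 1 Long-term dormant cell. The list median was -1.28 in the class and 0.75 within cluster 3. Mrc1, the mannose receptor, stood at 40.9 against 193 CPM in the class and 265 against 195 CPM in cluster 3.

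Interferon, checkpoint and costimulatory lists had medians above 0 in the class and near 0 within cluster 3, where the median of all genes was -0.05. Of 12 interferon-stimulated genes 4 were past 2-fold higher, with a median of 1.20, and within cluster 3 the count was 2 and the median -0.17. Cxcl10 stood at 199 against 19.5 CPM in the class and 72.5 against 19.6 CPM in cluster 3. Rsad2, viperin, stood at 85.8 against 19.2 CPM and 66.8 against 20.2 CPM. In cluster 3 a single cell held 25 of 38 Recurrent Cxcl10 UMIs and 25 of 35 Rsad2 UMIs, and without the cell with most UMIs of each gene neither was past 2-fold and the count was 0. In the class the count without the cell with the highest count of each gene was 3. Ifit3, with 28 of 242 Recurrent UMIs in 1 cell, came within 2-fold. Of 10 checkpoint ligands and costimulators 3 were higher and 1 lower, with a median of 1.21. The lower one, Cd80, was within 2-fold without 1 cell that held 2 of its 39 Long-term dormant UMIs. Within cluster 3 none of 7 was past 2-fold and the median was -0.0038. Cd86, which costimulates T cells, stood at 123 against 31.8 CPM and Cd274, PD-L1, at 33.6 against 9.87 CPM. Within cluster 3 these stood at 57.2 against 32.5 CPM and 9.54 against 10.4 CPM.

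MHC class II genes had a median of 0.80 in the class and 0.87 in cluster 3. Cd74, the invariant chain, stood at 26363 CPM in the Recurrent and 8452 CPM in the Long-term dormant library, a log2 ratio of 1.64 (1.62 to 1.66). H2-Ab1, a beta chain, stood at 7685 against 3503 CPM, and these 2 of 7 members were past 2-fold higher in the class. In cluster 3 Cd74 stood at 15677 against 8236 CPM, a log2 ratio of 0.93 (0.89 to 0.96), and no member was past 2-fold. MHC class I genes had 0 of 9 past 2-fold in both, with medians of 0.47 and 0.11.

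Hypoxia and glycolysis genes were higher in the class for 8 of 14 members, with a median of 1.24, and within cluster 3 for 3 of 13, with a median of 0.78. Bnip3, a mitophagy receptor that hypoxia induces, stood at 159.9 against 26.4 CPM, a log2 ratio of 2.59 (2.30 to 2.91), and Slc2a1, the glucose transporter, at 58.5 against 17.1 CPM. Eno1 stood at 748 against 308 CPM, Aldoa at 1093 against 416 CPM and Ldha at 881 against 358 CPM. Eno1 and Bnip3 were past 2-fold within cluster 3 too, at 841 against 314 CPM and 93.5 against 26.4 CPM. Eno1, Ldha and Aldoa were thus past 2-fold higher in both the epithelial-like and the macrophage- or monocyte-like class. Arg1, arginase, stood at 189 against 20.0 CPM in the class and 322 against 21.0 CPM in cluster 3, higher in both.

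Lipid-handling and lysosomal genes split within their lists. Of 10 lipid-associated macrophage genes 2 were past 2-fold higher and 4 lower, with a median of -0.43. Spp1, osteopontin (chromosome 5, 104435118 to 104441050), stood at 2595 CPM in the Recurrent and 292 CPM in the Long-term dormant library, a log2 ratio of 3.15 (3.06 to 3.24). Apoe, an apolipoprotein that leads cluster 8, stood at 43378 against 3841 CPM. On the lower side Gpnmb, a lysosomal glycoprotein, stood at 3.00 against 298 CPM, Fabp5, a fatty acid carrier, at 182 against 1449 CPM, and Lpl, lipoprotein lipase, at 197 against 1054 CPM. All 5 were past 2-fold in the same direction within cluster 3, for example Spp1 at 1464 against 299 CPM and Gpnmb at 21.0 against 313 CPM. Trem2, a lipid receptor, stood at 933 against 479 CPM in the class and was within 2-fold. The list median was -0.90 in cluster 3. Of 10 cathepsin and lysosome genes Ctss and Ctsz were higher and Ctsk and Ctsl lower in the class, with a median of 0.21, while within cluster 3 Ctsk was the 1 past 2-fold, lower, and the median was -0.29. Ctsk, a collagen-degrading cathepsin, stood at 0.346 against 245 CPM in the class and 1.91 against 257 CPM in cluster 3, and Ctss at 3817 against 1430.4 CPM and 2053 against 1456 CPM.

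**Figure D4:**
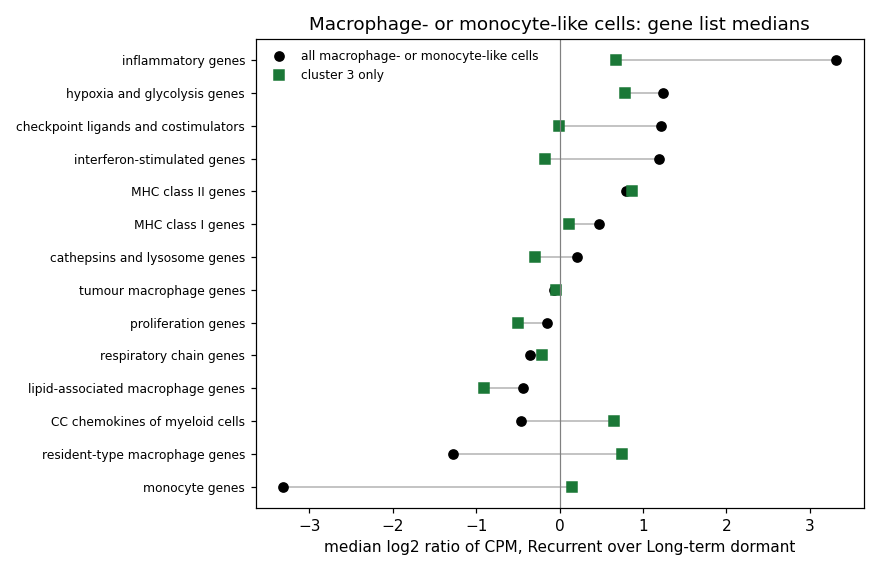
Median log2 ratio of CPM, Recurrent over Long-term dormant, for gene lists in all macrophage- or monocyte-like cells (black circles) and in cluster 3 alone (green squares). The median of inflammatory genes is 3.31 in the class and 0.68 in cluster 3, and that of monocyte genes -3.31 and 0.14.

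Chemokines and proteases also split. Of 10 CC chemokines 2 were past 2-fold higher and 4 lower in the class, with a median of -0.46, but 4 higher and none lower within cluster 3, with a median of 0.65. Without the cell with the highest count of each gene 1 was higher and 4 lower in the class and 2 higher in cluster 3. Ccl17, with all 98 Recurrent UMIs in 1 cell, and Ccl2, with 30 of 428 in 1 cell, lost their calls there. Ccl12, which attracts monocytes and leads cluster 2, stood at 363 against 37.1 CPM in the class and 191 against 35.9 CPM in cluster 3. Ccl24, which draws eosinophils, stood at 8.30 against 59.5 CPM, and Ccl6 and Ccl9, which lead cluster 3, at 389.5 against 1912 CPM and 404 against 1290.3 CPM. In cluster 3 these 3 were within 2-fold, with Ccl6 at 3188 against 1969 CPM. Of 11 metalloproteinases and inhibitors Mmp14, a membrane-bound protease, was higher at 74.7 against 26.9 CPM, and 6 were lower, of which Mmp9 and Mmp19 are no candidates for free RNA. Mmp9, a gelatinase, stood at 0.461 against 67.0 CPM in the class and 5.72 against 70.4 CPM in cluster 3, where 3 of 10 list members were lower and none higher. Without the cell with the highest count of each gene 2 were lower there. The interval of Timp3, with 4 of 53 Long-term dormant UMIs in 1 cell, then reached inside 2-fold. C1qa, C1qb and C1qc, the chains of the complement starter C1q and leaders of clusters 2 and 8, stood at 5226 against 298 CPM, 4616 against 245 CPM and 4102 against 189 CPM, and were past 2-fold higher within cluster 3. The complement list as a whole split, with 4 of 11 measured members higher and 2 lower in cluster 3. Without the cell with the highest count of each gene, 4 complement genes were higher and 5 lower in the class. Axl, a receptor for dying cells, was the 1 of 4 TAM receptor genes past 2-fold, higher at 283 against 89.7 CPM, and in cluster 3 none of 3 was, with Axl at 74.4 against 88.7 CPM. Jag1 was higher in the class, at 24.2 against 7.47 CPM, and Notch2 lower, at 30.6 against 75.5 CPM, while in cluster 3 none of 3 Notch receptors and ligands was past 2-fold and Notch2 stood at 76.3 against 76.6 CPM. Cdkn1a, the inhibitor p21, and Btg2, an antiproliferative gene, were the 2 of 9 cell cycle inhibitors past 2-fold higher, at 476 against 209.7 CPM and 300.2 against 111 CPM. In cluster 3 none of 8 was, with Cdkn1a at 408 against 214 CPM and Btg2 at 259.5 against 112 CPM. Of 20 proliferation genes none was past 2-fold in the class, with a median of -0.14 that TMM factors turned to 0.10. In cluster 3 none of 13 was, with a median of -0.50. These values leave out the unnamed cells, 9 Recurrent and 103 Long-term dormant, of which 3 and 81 held a Top2a UMI. Among them, cluster 21.1 (38 Long-term dormant cells) was led by S100a4, Nrp2 and Top2a. Cluster 21.2 (32 Long-term dormant cells) was led by Retnla, Clec4b1 and Ccl24. How the list would stand with such cells in the class was not tested. Tgfbr1, a TGF-beta receptor, stood at 258 against 36.3 CPM in the class and 30.5 against 35.1 CPM in cluster 3.

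The highest named genes were Tmem119 at 370.2 against 3.47 CPM, Pxdc1 at 212 against 4.27 CPM and Pmepa1, a TGF-beta target, at 391 against 11.7 CPM. Cxcl14 stood at 339 against 17.6 CPM, Cd81, a tetraspanin, at 731 against 58.2 CPM and Lair1, an inhibitory collagen receptor, at 178 against 16.8 CPM. Cd81, Pmepa1 and Pxdc1 were past 2-fold higher within cluster 3 as well, and Cxcl14 was not. Among the lowest were Fabp4 at 3.11 against 133 CPM, Cd93 at 10.5 against 143 CPM and S100a6, a calcium-binding protein, at 278 against 3531 CPM. S100a6 stood at 2481 against 3543 CPM in cluster 3, within 2-fold.

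T-like cells too came from different clusters. Of 448 Recurrent cells 224 lay in cluster 13, led by Gzmb, Gzmc and Xcl1 and by the gamma-delta receptor genes Trdc and Tcrg-C1, 76 in cluster 4, led by Trbc2, Cd3d and Cd8b1, 69 in cluster 11, led by Tnfrsf4, Izumo1r and Ctla4, and 64 in cluster 16, led by Pdcd1, Ccl5 and Lag3. Of 266 Long-term dormant cells 210 lay in cluster 4, 38 in cluster 11 and 11 in cluster 13. The 8 T cell markers summed to 5484 and 3374 CPM. Over 6363 genes 79 were past 2-fold higher and 129 lower, and the median of all genes was -0.02. With TMM factors, which moved the ratios by 0.16, the split was 106 and 104.

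Cytotoxicity genes were higher for several members. Of 9 measured 4 were past 2-fold higher and 1 lower, with a median of 1.10, where 1.24% of all genes measured were higher and 2.03% lower. Gzmb, a granzyme that triggers death of target cells (chromosome 14, 56258838 to 56262260), stood at 1516 CPM in the Recurrent and 119 CPM in the Long-term dormant library, a log2 ratio of 3.66 (3.28 to 4.08). Gzmc, a granzyme (chromosome 14, 56231441 to 56234656), was at 0 UMIs in the Long-term dormant class and at 443 CPM in the Recurrent class, at least 68.2-fold higher. Gzmf, a close copy, was at 0 UMIs and 178 CPM, or 121 CPM without 1 cell that held 86 of its 268 UMIs. Nkg7, a granule protein, stood at 1764 against 557 CPM. Ccl5, a chemokine of effector and memory cells, was the lower member, at 1306 CPM in the Recurrent and 3521 CPM in the Long-term dormant library, a log2 ratio of -1.43 (-1.53 to -1.33). Gzmb, Gzmc, Nkg7 and Ccl5 lead clusters, and without them 1 of 5 was higher. Within cluster 4, where 0.452% of all genes were past 2-fold higher and 3.37% lower, none of 4 measured members was higher, with Gzmb at 122 against 38.7 CPM, and Ccl5 was lower at 968 against 4849.5 CPM. Prf1, perforin, stood at 15.9 against 6.50 CPM, a log2 ratio of 1.10 (-0.42 to 3.67). Ifng, interferon gamma, stood at 15.3 against 30.3 CPM.

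Killer lectin-like receptors and inhibitory receptors lay higher in part. Of 5 measured members of the first list 2 were past 2-fold higher, with a median of 1.38. Klrd1, which pairs with NKG2 receptors (chromosome 6, 129591782 to 129598775), stood at 644 CPM in the Recurrent and 145 CPM in the Long-term dormant library, a log2 ratio of 2.14 (1.79 to 2.53). Ncr1, an activating receptor and an NK cell marker, stood at 65.7 against 4.33 CPM, from 2 Long-term dormant UMIs. The 20 Recurrent NK-like cells were too few for the check for free RNA. Of 6 inhibitory receptor genes 2 were past 2-fold higher, Lag3 at 71.7 against 8.66 CPM and Cd160 at 114 against 32.5 CPM. Pdcd1, PD-1, stood at 157 against 62.8 CPM, a log2 ratio of 1.30 (0.77 to 1.94), and Ctla4 at 71.7 against 179.8 CPM, a log2 ratio of -1.33 (-1.75 to -0.89), neither past 2-fold. Pdcd1 and Lag3 lead cluster 16, which held 64 Recurrent cells and 1 Long-term dormant cell. Without 1 cell that held 7 of its 172 Recurrent UMIs the interval of Cd160 reached inside 2-fold. Within cluster 4 none of 4 killer lectin-like receptors was past 2-fold, with a median of 0.18 and Klrd1 at 324 against 158 CPM, and none of 2 inhibitory receptors, Pdcd1 and Ctla4, with a median of -1.65, while Lag3, Cd160 and Ncr1 had too few UMIs there.

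Genes of naive, circulating and helper-type cells lay lower in part. Of 8 naive and circulating T cell genes 2 were past 2-fold lower and none higher, with a median of -0.88. Il7r, the receptor that keeps resting T cells alive (chromosome 15, 9505788 to 9530176), stood at 39.8 CPM in the Recurrent and 236 CPM in the Long-term dormant library, a log2 ratio of -2.56 (-3.05 to -2.10). S1pr1, which lets cells leave tissue, stood at 7.31 against 41.1 CPM, from 19 Long-term dormant UMIs, and was within 2-fold without 1 cell that held 4 of them. Within cluster 4 Il7r had a log2 ratio of -1.98 and was past 2-fold, while S1pr1 had too few UMIs there. Among regulatory T cell genes Tnfrsf9, a costimulator, was higher at 310.1 against 56.3 CPM and Icos lower at 87.7 against 303 CPM, of 9 measured, and both lead clusters. Foxp3, the factor that defines regulatory cells, stood at 12.6 against 26.0 CPM, a log2 ratio of -1.06 (-2.16 to 0.13). Of the lowest named genes Rora, a nuclear receptor of innate-type lymphocytes (chromosome 9, 68653786 to 69388246), stood at 62.4 against 429 CPM and 30.4 against 496 CPM within cluster 4. Ccr2 stood at 23.2 against 184 CPM and Il1rl1, the receptor for interleukin 33, at 9.30 against 106 CPM.

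**Figure D5:**
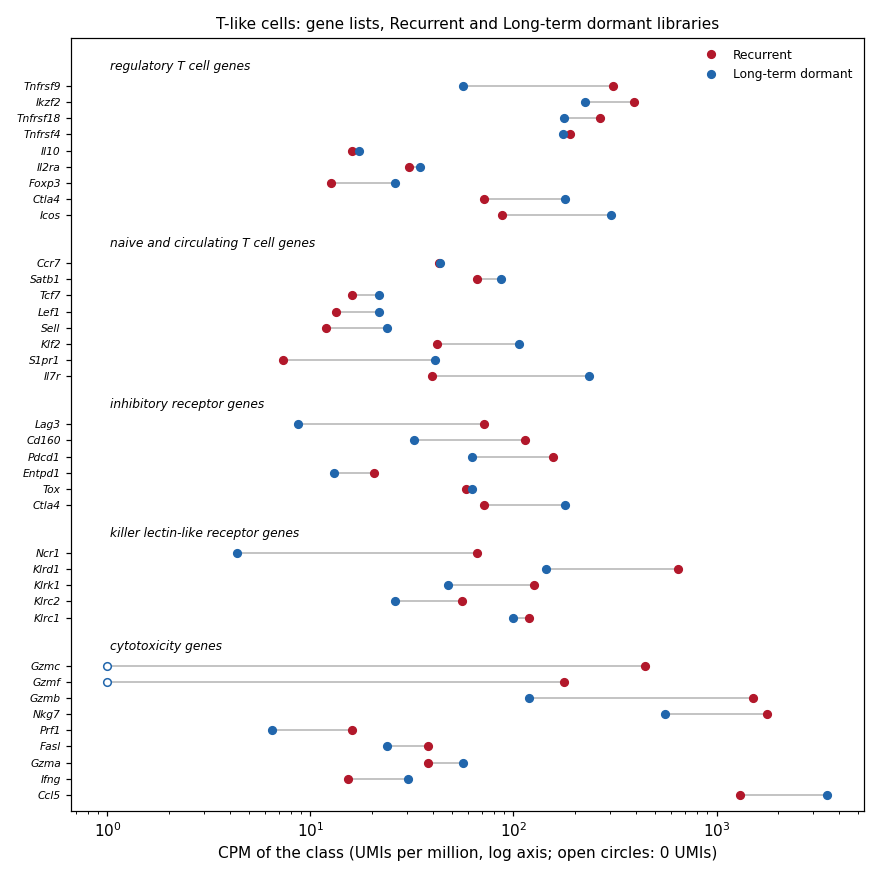
Level of each measured member of 5 gene lists in T-like cells (CPM, log axis), Recurrent in red and Long-term dormant in blue, with open circles at the left edge for 0 UMIs. Gzmb, Gzmc, Gzmf, Nkg7, Klrd1 and Ncr1 lie higher in the Recurrent library, and Ccl5, Il7r, S1pr1 and Icos lower.

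Nrarp, a Notch target that feeds back on the pathway, was the 1 of 4 measured Notch targets past 2-fold in T-like cells, higher at 113 against 15.2 CPM. The immediate early genes Fos and Fosb, which dissociation can also induce, were lower, at 140.1 against 385 CPM and 112 against 424 CPM, and these were the 2 of 12 members past 2-fold. Of 19 proliferation genes none was past 2-fold, with a median of -0.25. Hypoxia and glycolysis genes had 0 of 13 past 2-fold. Interferon-stimulated genes had 0 of 5 past 2-fold, with Isg15 at 98.3 against 41.1 CPM and Cxcl10 at 79.0 against 30.3 CPM. MHC class II genes were lower for 2 of 5 measured members, and all 5 are candidates for free RNA. Basal epithelial markers summed to 138 CPM in Recurrent T-like cells and were all at 0 in the Long-term dormant ones, and fibroblast markers summed to 18.6 and 977 CPM; the part of such free RNA in the values above was not tested.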

How the data were processed

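The deposited table of the 4 tumour stages holds UMI counts per gene and cell, which the authors made with Cell Ranger 3.1.0 on mm10 per the submitters' processing notes. Libraries were prepared with the version 2 kit for 10000 targeted cells per the labels. Cells of all 4 stages were filtered, Scrublet doublets removed, and clustered together with scanpy 1.11.5 (2000 variable genes, 30 principal components, 15 neighbours, Leiden resolution 1.0). The rule for naming clusters was revised after clusters were seen, while the markers stayed fixed. Counts of each class were summed per library and compared for classes with at least 50 cells and genes with at least 20 UMIs over both libraries. Ratios have exact conditional Poisson intervals, levels exact Poisson intervals and shares Clopper-Pearson intervals, and a count of 0 is set at a floor of 3 UMIs. UMIs are molecules, and the intervals cover counting error only. The smaller class sets the precision: the Long-term dormant epithelial-like class held 817746 UMIs and the Recurrent fibroblast-like class 744633. The code was tested on simulated data. Lists and tests were chosen with earlier results of these data known. No sample-level replicate exists, so no test was made. Named genes were, besides list members, the 12 highest and 12 lowest by log2 ratio past 2-fold (6 in T-like cells) with a mean of at least 50 CPM. Left out of this ranking were genes that lead a cluster of the class, predicted genes, candidates for free RNA and genes with over 20% of their UMIs in 1 cell. Genes left out can therefore have larger ratios than the named ones. Alternatives were a stricter filter (1000 UMIs, 500 genes, 10% mitochondrial), doublets kept, resolutions 0.5 and 2.0, and only the 2 libraries clustered. Further ones were edgeR 4.0.16 TMM factors, totals without 3 gene families, minimums of 5 and 100 UMIs, and equal weight of cells. Single clusters, and list members without the 1 cell with the highest count of the gene, were chosen after the data were seen. Gene positions are from GENCODE, mm10. One member of the interferon-stimulated list is counted in that list but its own values are not reported here.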

Additional observations from a re-analysis of the deposited data

Results flagged for a closer look

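Over all genes measured 48 were past 2-fold in opposite directions in 2 cell classes, and 4 of these were named genes or list members at 50 CPM or more in both classes. With 1 library a side the difference between classes was not tested. Cxcl14 was higher in Recurrent macrophage- or monocyte-like cells, at 339 against 17.6 CPM, and lower in epithelial-like cells, at 3.86 against 254 CPM, so that the log2 ratios differed by 10.30. Apoe was higher in macrophage- or monocyte-like cells, at 43378 against 3841 CPM, and lower in epithelial-like cells, at 379 against 915 CPM, a difference of 4.77. Fabp5 was higher in epithelial-like cells, at 268 against 78.3 CPM, and lower in macrophage- or monocyte-like cells, at 182 against 1449 CPM, a difference of 4.76. Ccl7 was higher in fibroblast-like cells, at 1183 against 538 CPM, and lower in macrophage- or monocyte-like cells, at 142 against 388 CPM, a difference of 2.59. Without 1 cell that held 67 of its 881 Recurrent UMIs, the call of Ccl7 in fibroblast-like cells was lost. The log2 ratio was then 1.04 (0.93 to 1.15).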

How the results depend on the processing

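The epithelial-, fibroblast-, macrophage- or monocyte-, T- and NK-, and dendritic-like shares kept their order between the libraries in every clustering and filter run; the other shares were not recomputed, and several sizes moved. More genes were lower than higher in epithelial-like cells, but within cluster 22 337 were higher and 140 lower. The Long-term dormant fibroblast-like share was 52.4% under the stricter filter. Of Long-term dormant immune-like cells, macrophage- or monocyte-like cells were 46.5% at resolution 0.5, 32.3% at 2.0 and 38.7% with only the 2 libraries clustered. T- and NK-like cells were 14.5% under the stricter filter, 20.5% at resolution 2.0 and 19.4% with only the 2 libraries. Dendritic-like cells were 37.9%, 29.8%, 38.8% and 34.3% under the stricter filter, resolutions 0.5 and 2.0, and only the 2 libraries. At a minimum of 5 UMIs 994 genes were lower in epithelial-like and 252 in T-like cells. At a minimum of 100 UMIs 281 genes were lower in epithelial-like, 286 in macrophage- or monocyte-like and 44 in T-like cells, and 65 higher in fibroblast-like cells, with fewer genes measured. With only the 2 libraries clustered 200 genes were higher in T-like cells. Within single clusters, chosen after the data were seen and with fewer cells, 80 genes were higher and 69 lower in cluster 3, and 11 higher and 82 lower in cluster 4.

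Among list medians some changed sign, and the cause was not tested. Within cluster 22 the median was 7.49 for basal, -0.24 for acute phase, -0.12 for respiratory chain and 0.83 for metalloproteinase genes. Within cluster 3 it was -0.17 for interferon-stimulated, -0.19 for unfolded protein response, -0.44 for TGF-beta family, 0.75 for resident-type, 0.14 for monocyte, 0.65 for CC chemokine, -0.29 for cathepsin and -0.0038 for checkpoint genes, and Gk had a log2 ratio of -0.40. In macrophage- or monocyte-like cells the median of metalloproteinase genes was 0.039 at a minimum of 100 UMIs, of TGF-beta family genes -0.13 at a minimum of 5 UMIs, of lipid-associated genes 0.28 at resolution 2.0, and of cathepsin genes -0.051 with only the 2 libraries and -0.0016 with equal weight of cells. TMM factors moved the ratios by 0.11 in epithelial-like and -0.06 in fibroblast-like cells, and totals without 3 gene families by -0.25 in epithelial-like and -0.12 in macrophage- or monocyte-like cells. TMM factors changed the sign of 9 of 98 list medians and the other totals of 5, of which the furthest from 0 was at -0.24 before. Without the 1 cell that held all its UMIs, Igfbp2 in fibroblast-like cells went from a log2 ratio of 5.16 to -1.41, at 0 UMIs. Dendritic-like cells were too few in the Recurrent library for a comparison of genes. No paired analysis was possible because each group is 1 library.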
